A study of Mus musculus with 15 samples.

Results

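The 5 genes described here encode the intermediate filament proteins of neurons: the neurofilament light, medium and heavy chains (Nefl, Nefm and Nefh), alpha-internexin (Ina) and peripherin (Prph). They were taken by gene symbol from a table of 18536 genes, and each symbol matched 1 row. Levels were measured by bulk RNA sequencing of the mouse auditory nerve, microdissected from the cochlea of pups on postnatal days 3, 7, 14 and 21 (P3 to P21) and of adults, whose age the labels do not give. Each age had 3 libraries, 15 in all, and each library came from both cochleae of 1 mouse. The labels name no strain, sex, litter or treatment. The titles mark the adult libraries, and no others, as CTRL without saying what this means, so age and any other difference that this mark stands for cannot be told apart. A library of whole nerve pools neurons, myelinating glia and the tissue around them.

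Neurofilaments run along the axon and set its calibre, and thick, myelinated axons are rich in them. Nefl forms the core of the filament, Nefm and Nefh carry long side arms that are heavily phosphorylated in mature axons, and Ina co-assembles with them in many central neurons. Prph belongs to another class of filament protein, is found mainly in peripheral neurons, and in the cochlea is used as a marker of the type II spiral ganglion neurons, the small unmyelinated minority that contacts outer hair cells. In developing neurons generally, Ina and Nefm tend to appear early and Nefh late.

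Per the coordinates in the deposited table (build mm10), Nefl lies on chromosome 14 from 68083884 to 68087737 on the plus strand, and Nefm on the same chromosome from 68119545 to 68125004 on the minus strand, with 31807 bases between them. Nefh lies on chromosome 11 from 4938756 to 4948064 on the minus strand. Ina lies on chromosome 19 from 47014698 to 47024346 on the plus strand, and Prph on chromosome 15 from 99055174 to 99058978 on the plus strand. Nefm, Nefh and Ina each overlap a gene on the other strand, and whether the counting used strand is not given in the sources used here. Nefm shares 1253 bases with A230070E04Rik, whose own normalized counts stayed between 42.7 and 284. Nefh shares 544 bases with Ap1b1, at 3446 to 10296, and Ina shares 492 bases with Nt5c2, at 2809 to 5294. If strand was not used, reads over the shared bases cannot be told apart in any of these pairs. The Nt5c2 values are of the same order as those of Ina.

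Promoter sequence is shown for Ina, whose level rose with age, and Prph, whose level did not pass a test over age, to set side by side the start regions of members with different courses. They are the 2 of 5 members matched in the RefSeq promoter table (GRCm38.p6). Each line gives the 250 bases before the RefSeq start site, 5′ to 3′ on the plus strand, with TATAAA and CCGCCC in capitals. The Ina window is chr19:47014431-47014680 and the Prph window is chr15:99054924-99055173.
Ina: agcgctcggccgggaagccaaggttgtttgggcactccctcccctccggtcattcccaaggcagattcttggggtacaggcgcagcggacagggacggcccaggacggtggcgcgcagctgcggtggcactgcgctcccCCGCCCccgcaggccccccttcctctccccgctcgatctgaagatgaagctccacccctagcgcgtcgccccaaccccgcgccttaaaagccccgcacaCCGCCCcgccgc
Prph: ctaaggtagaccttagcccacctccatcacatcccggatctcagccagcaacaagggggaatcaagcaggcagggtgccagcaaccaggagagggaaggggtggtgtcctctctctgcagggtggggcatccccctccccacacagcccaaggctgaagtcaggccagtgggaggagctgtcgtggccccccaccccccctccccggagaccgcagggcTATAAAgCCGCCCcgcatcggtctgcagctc
Both motifs were searched on both strands (reverse strand TTTATA and GGGCGG), and their matches did not overlap each other. Prph held TATAAA starting at position -31, counted back from the start site, and CCGCCC at -24. Ina held CCGCCC at -111 and -12 and no TATAAA in this window. Of 32851 windows of the same length, 12.4% held TATAAA and 32.7% held CCGCCC on either strand. The GC content was 70.8% in Ina and 65.2% in Prph, against a median of 52.4% over all windows. These matches describe the letters and say nothing of what binds there.

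The recovered depth was 35250155 to 42258738 reads per library, and the values used below are normalized read counts, that is, reads divided by a size factor for each library. Transcripts of other tissue were present in the dissections. From P3 to adult, the summed level of 8 Schwann cell markers was 218403 to 325150 at P3, 795671 to 942810 at P7, 1013233 to 1530089 at P14, 701572 to 900878 at P21 and 479243 to 551130 in adults. The sum of 6 bone and fibroblast markers was 565339 to 881915 at P3, 493515 to 613418 at P7, 298217 to 395465 at P14, 101246 to 150737 at P21 and 49161 to 58900 in adults, and all 6 were lower in adults than at P3 by the test described below. The sum of 4 macrophage markers was 13683 to 19818 at P3, 8212 to 10446 at P7, 5257 to 8075 at P14, 3666 to 4353 at P21 and 3100 to 3865 in adults, with all 4 lower in adults than at P3. Of the Schwann cell markers 6 of 8 were higher in adults than at P3. Among all genes tested, 68.7% differed between adults and P3 by that test, and 34.4% were higher in adults. The sum of 6 oligodendrocyte markers was 21998 to 29971 at P3, 68375 to 81554 at P7, 61374 to 116052 at P14, 55881 to 70678 at P21 and 46963 to 49577 in adults, with 5 of 6 higher in adults than at P3. Cnp made up most of this sum in every library, at 21674 ± 3577 at P3 and 34606 ± 1324 in adults (SD, n = 3 each). The sum therefore hides the course of markers at lower counts. Among these, Mog averaged 79.7 ± 60.5 at P3 and 1223 ± 320 in adults, and Ermn 31.4 ± 22.7 and 1072 ± 181. P14 replicate 3 stood apart, with a sum of 116052 against 61374 and 72264 in the other P14 libraries and 24214 normalized counts of the astrocyte filament gene Gfap against 2010 and 4966. It was also the P14 library with the highest Nefl, Nefm and Ina and the lowest Nefh, and the rises of these 4 genes at P14 against P7 passed the test without it as well. No marker of these lists was at 0 in any library. These lists also changed with age, in part in other directions than the filament genes, and their part in the results was not tested. The Y-linked gene Eif2s3y set 4 libraries apart: in adult replicate 3, in replicates 1 and 2 of P21 and in replicate 1 of P14 it was at 0 to 26.7, against 1576 to 3366 in the other 11, so sex is mixed unevenly with age.

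Together the 5 genes made up 0.095% to 0.160% of all normalized counts at P3, 0.117% to 0.140% at P7, 0.457% to 0.498% at P14, 0.355% to 0.528% at P21 and 0.553% to 0.592% in adults. Nefl, Nefm, Nefh and Ina rose steeply between P7 and P14, and Nefh rose most over the whole span. Prph, at a normalized count between 108 and 589, did not pass the test in any pair of ages. Because the samples are whole tissue, more neurons or axons per dissection and more RNA per neuron cannot be told apart in any of these changes.

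**Figure D1:**
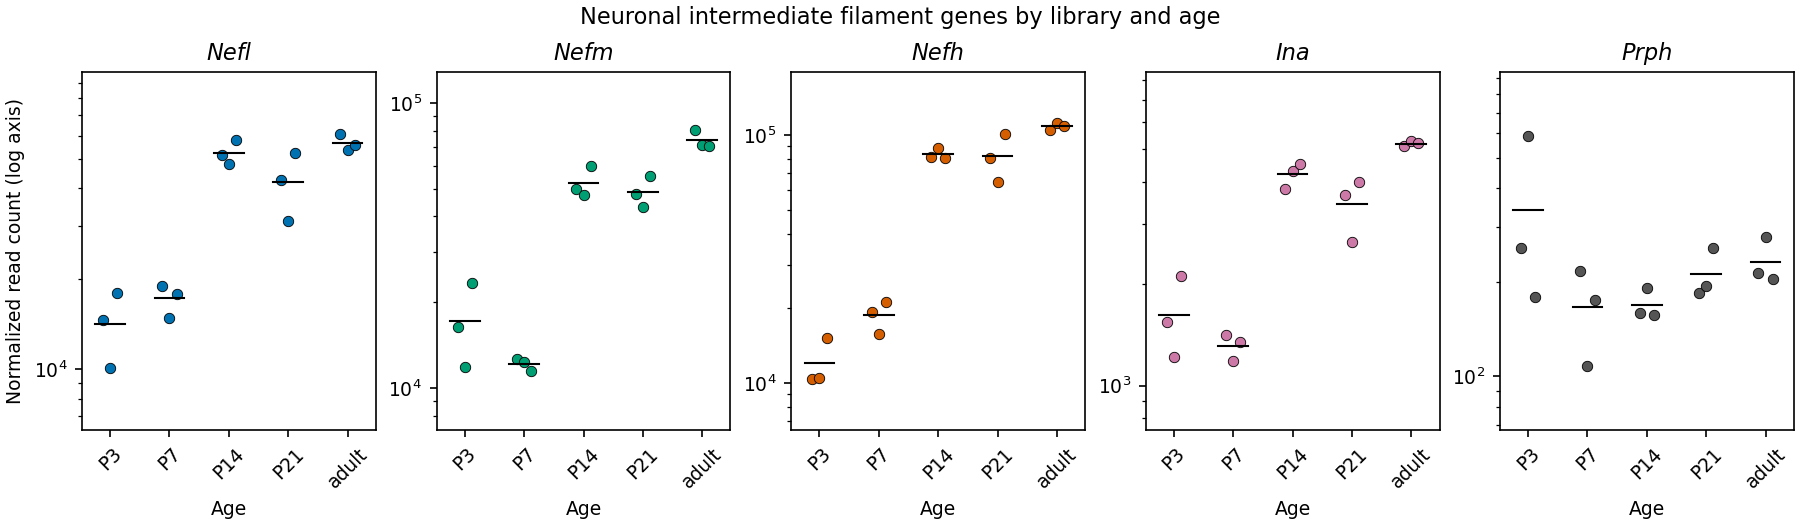
Normalized read counts of the 5 genes (log axis, a separate range for each gene) in each of 15 libraries by age; points are libraries and lines are means of 3. For Nefl, Nefm, Nefh and Ina every library at P14, P21 and adult lies above every library at P3 and P7, whereas Prph is spread from 180 to 589 at P3 alone.

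Nefl, the chain without which neurofilaments do not assemble in mice, had 14567, 10085 and 17921 normalized counts at P3, 18972, 14879 and 17856 at P7, 51840, 48102 and 57924 at P14, 42726, 31213 and 52522 at P21 and 60898, 53521 and 55667 in adults. The P3 and P7 libraries overlapped with each other, all 9 later libraries were higher than these 6, and P21 replicate 2 was the lowest of the 9. In means this was 56695 ± 3794 in adults and 14191 ± 3931 at P3 (SD, n = 3 each).

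Nefm, the medium chain, had 16367, 11862 and 23418 normalized counts at P3, 12621, 12356 and 11441 at P7, 50065, 47571 and 60066 at P14, 47923, 43261 and 55586 at P21 and 80133, 71069 and 70595 in adults. Its lowest age was P7, where the 3 libraries lay close together, and 2 of them lay within the wider range of P3. Every adult library was above every P14 and P21 library.

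Nefh, the heavy chain, had 10375, 10506 and 15160 normalized counts at P3, 19300, 15776 and 21184 at P7, 81140, 88684 and 80962 at P14, 80404, 64727 and 100658 at P21 and 105126, 111819 and 108969 in adults. The P3, P7 and adult libraries each formed a separate range, while P14 lay within the wide range of P21. From P14 on Nefh ranked between place 13 and place 31 of all genes by normalized count, against places 156 to 435 at P3 and P7.

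Ina, which joins the neurofilament triplet in the same filament, had 1540, 1217 and 2110 normalized counts at P3, 1412, 1185 and 1341 at P7, 3809, 4307 and 4519 at P14, 3654, 2656 and 3993 at P21 and 5109, 5280 and 5203 in adults. Its adult libraries differed from each other by little (CV 1.6%) and lay above all others. As for Nefl, Nefm and Nefh, the lowest library from P14 on was P21 replicate 2.

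Prph had 257, 589 and 180 normalized counts at P3, 218, 108 and 175 at P7, 160, 192 and 157 at P14, 185, 195 and 257 at P21 and 214, 279 and 205 in adults. The highest value of all was P3 replicate 2, the library in which Nefl, Nefm and Ina were at their lowest for that age, and without it the other 14 libraries ran from 108 to 279. All Prph values were far above the floor of 3 reads, a normalized count of 2.53 to 3.65.

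Each pair of ages was compared with limma on log2(normalized count + 1), fitted on the 16723 genes that reached 10 in 3 or more libraries, and a gene is said to rise or fall where the Benjamini-Hochberg adjusted p was under 0.05. All 5 members passed that filter. In the joint test over the 5 ages 4 of the 5 differed, with adjusted p of 1.05e-06 for Nefl, 7.95e-08 for Nefm, 2.75e-09 for Nefh and 5.70e-07 for Ina, where 85.4% of all genes were called. For Prph the adjusted p was 0.151. It was 0.0288 in the lowest of 26 alternatives and was under the threshold with DESeq2 and without P3 replicate 3.

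Of the 5 genes, P7 against P3 called 1, Nefh, in a comparison that called 28.1% of all genes. Nefh averaged 18753 ± 2745 at P7 and 12013 ± 2726 at P3 (SD, n = 3 each), a log2 fold change of 0.65 ± 0.17 (SE, adjusted p = 0.0116), and the libraries of both ages did not overlap, as for 54.2% of all genes. The other 4 differed by less than the test could tell apart from their spread: Nefl by 0.31 ± 0.20, Nefm by -0.45 ± 0.19, Ina by -0.27 ± 0.18 and Prph by -0.90 ± 0.36 on the log2 scale, with adjusted p of 0.268, 0.0895, 0.269 and 0.0751 in that order. Some of these outcomes depended on single libraries or on the method. The call of Nefh held in 25 of 26 alternatives, and without P3 replicate 2 its limma adjusted p was 0.0506. Nefm was called lower at P7 without the same library, after quantile normalization and with DESeq2. Prph was called lower at P7 without P3 replicate 3 and with DESeq2. The authors' deposited table gives signed fold changes of -1.42 for Nefm and -2.05 for Prph between P7 and P3, with unadjusted p-values of 0.00885 and 0.00551.

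P14 against P7 spans the onset of hearing in mice, and here Nefl, Nefm, Nefh and Ina all rose, while Prph did not pass the test. The comparison called 48.1% of all genes, 24.3% higher at P14. Nefh averaged 83595 ± 4408 at P14 and 18753 ± 2745 at P7, and Nefm 52567 ± 6613 at P14 and 12139 ± 619 at P7 (SD, n = 3 each). The log2 fold change was 2.17 ± 0.17 for Nefh (adjusted p = 3.83e-07), 2.11 ± 0.19 for Nefm (1.20e-06), 1.68 ± 0.18 for Ina (5.27e-06) and 1.61 ± 0.20 for Nefl (2.46e-05). The 3 P14 libraries of each of the 4 genes were above the 3 P7 libraries, and 61.4% of all genes had libraries that did not overlap. Prph differed by 0.07 ± 0.36 (adjusted p = 0.882). These 4 calls held in all 26 alternatives run, with the log2 fold change of Nefh between 2.05 and 2.26.

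Between P21 and P14 limma called 0 of the 5, and 0 of 5 had an unadjusted p under 0.05, in a comparison that called 9.29% of all genes. The same count of 0 came from edgeR, DESeq2 and limma-voom. Nefl averaged 42154 ± 10666 at P21 and 52622 ± 4957 at P14 (SD, n = 3 each), a log2 difference of -0.35 ± 0.20 (adjusted p = 0.306). The spread at P21 was the widest after P3: the coefficient of variation was 25.3% for Nefl, 22% for Nefh, 20.2% for Ina and 12.7% for Nefm.

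Adult against P21 called 3 of the 5, each higher in adults, where 49.4% of all genes were called and 25.4% were higher. Ina averaged 5197 ± 85.3 in adults and 3434 ± 695 at P21 (log2 fold change 0.62 ± 0.18, adjusted p = 0.0116), Nefm 73932 ± 5375 in adults and 48923 ± 6223 at P21 (0.60 ± 0.19, adjusted p = 0.0179), and Nefh 108638 ± 3359 in adults and 81930 ± 18014 at P21 (0.43 ± 0.17, adjusted p = 0.0481). Nefl, at 0.46 ± 0.20 (adjusted p = 0.0762), was not called although its adult libraries lay above its P21 libraries, as those of the other 3 did; 56.1% of all genes had libraries that did not overlap. The call of Nefh held in 10 of 27 alternatives, that of Nefm in 23 and that of Ina in 25. Without P21 replicate 2 limma called 0 of the 5. The 4 libraries low in Eif2s3y include P21 replicates 1 and 2, so without them only replicate 3 remains at P21. That fit counts among the 27 alternatives, but it cannot separate sex from the choice of P21 library. P21 replicate 2 was low in other genes as well: Dst, a giant linker of filaments to other cytoskeleton, had 32661, 16102 and 48171 normalized counts at P21 in replicate order, and Map1a, a microtubule-associated protein, had 47993, 26314 and 57566. Snap25, a synaptic vesicle fusion protein, had its highest P21 value, 93414, in that library.

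Adult against P3 covers the whole span, and limma called the same 4 genes higher, against 68.7% of all genes called and 34.4% higher. Nefh was 9.19-fold higher in adults (log2 fold change 3.20 ± 0.17, adjusted p = 1.98e-09), Nefm 4.46-fold (2.16 ± 0.19, adjusted p = 2.41e-07), Nefl 4.10-fold (2.04 ± 0.20, adjusted p = 9.14e-07) and Ina 3.29-fold (1.72 ± 0.18, adjusted p = 1.28e-06). The libraries of both ages did not overlap for any of the 4, as for 76.4% of all genes. Prph averaged 233 ± 40.1 in adults and 342 ± 218 at P3 (-0.38 ± 0.36, adjusted p = 0.354). In adults against P14, 1 of the 5 was called where 48.5% of all genes were: Nefm, at 0.50 ± 0.19 (adjusted p = 0.0422), a call that held in 14 of 27 alternatives. Its libraries did not overlap between adults and P14, nor did those of Nefh, Ina and Prph, as for 61.1% of all genes.

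The remaining pairs of ages set a later against an earlier side of the rise, and in each of them Nefl, Nefm, Nefh and Ina were called higher and Prph was not called. P14 against P3 called 58.1% of all genes, with log2 fold changes of 2.82 ± 0.17 for Nefh, 1.93 ± 0.20 for Nefl, 1.66 ± 0.19 for Nefm and 1.41 ± 0.18 for Ina. P21 against P3 called 64.5%, and Nefh was at 2.77. P21 against P7 called 56.5% and adult against P7 called 67.6%. In the last of these the log2 fold change was 2.61 for Nefm, whose lowest mean was at P7, and 2.54 for Nefh. Prph was closest to the threshold at P14 against P3 (-0.83 ± 0.36, adjusted p = 0.0611) and was called lower there with edgeR, with DESeq2, without P3 replicate 3 and with the replicate number as a block; the authors' deposited table gives a signed fold change of -2.02 with an FDR of 0.014.

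**Figure D2:**
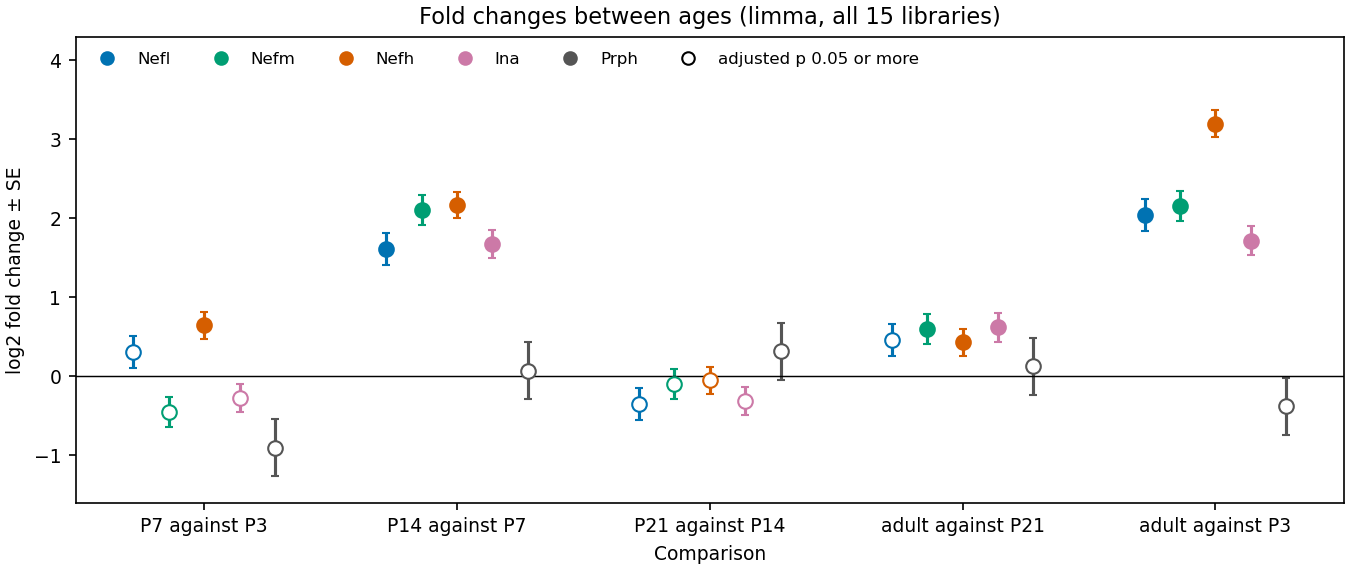
Log2 fold change of each gene between ages, with its standard error, from limma on all 15 libraries; filled points had an adjusted p under 0.05. Nefl, Nefm, Nefh and Ina rise between 1.61 and 2.17 on the log2 scale at P14 against P7, Nefh stands apart at 3.20 for adult against P3, and Prph is open throughout.

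Ordered by mean level, Nefl ran P3, P7, P21, P14 and adult, and of the 4 neighbouring pairs P21 over P7 alone passed the test (adjusted p = 1.39e-04). Nefm ran P7, P3, P21, P14 and adult, with P21 over P3 (8.30e-06) and adult over P14 (0.0422) past the threshold. Nefh ran P3, P7, P21, P14 and adult, with P7 over P3 (0.0116) and P21 over P7 (2.64e-07) past it. Ina ran P7, P3, P21, P14 and adult, with only P21 over P3 past it (1.09e-04). For Prph no neighbouring pair passed.

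The members did not change in proportion. A ratio of 2 genes within a library does not depend on how that library was scaled, so the ratios of the 9 libraries at P14, P21 and adult were set against those of the 6 libraries at P3 and P7 by exact permutation over all 5005 splits, adjusted over the 10 pairs of genes. The split follows the onset of hearing, and each side mixes ages. The ratio of Nefh to Nefl was 0.712, 1.04 and 0.846 at P3, 1.02, 1.06 and 1.19 at P7, 1.57, 1.84 and 1.40 at P14, 1.88, 2.07 and 1.92 at P21 and 1.73, 2.09 and 1.96 in adults. All 9 later libraries were above all 6 earlier ones. The heavy chain thus gained 1.88-fold on the light chain (log2 difference 0.91, exact p = 4.00e-04, the smallest these splits can give, adjusted p = 6.66e-04), and the log2 difference was 0.88 (adjusted p = 0.00722) once the 4 libraries low in Eif2s3y were removed.

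Nefh also gained on Ina, by 1.06 on the log2 scale (2.08-fold, exact permutation, adjusted p = 6.66e-04), again with no overlap. Nefm gained 0.47 on Ina (adjusted p = 0.00114), with ranges that met. The ratio of Nefm to Nefl did not differ past the threshold (0.32, adjusted p = 0.0932), nor did that of Ina to Nefl (-0.15, adjusted p = 0.248). Nefh against Nefm gave 0.59 (adjusted p = 0.0405) with overlapping ranges, and that call was lost when any single P3 library was left out, among other alternatives. Each of the 4 genes gained on Prph, by 1.67 (Ina) to 2.73 (Nefh) on the log2 scale, with adjusted p of 6.66e-04 by exact permutation.

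The ratio of Nefm to Nefl followed another course from P3 to adult: it averaged 1.20 ± 0.0943 at P3, 0.712 ± 0.103 at P7, 0.997 ± 0.0363 at P14, 1.19 ± 0.174 at P21 and 1.30 ± 0.0316 in adults (SD, n = 3 each). All 3 P7 libraries, at 0.641 to 0.830, were below all 3 P3 libraries, at 1.12 to 1.31. The ratio of Ina to Nefl had its highest mean at P3, 0.115 ± 0.00792, and averaged 0.0764 ± 0.00285 at P7, 0.0803 ± 0.00828 at P14, 0.0822 ± 0.00536 at P21 and 0.0920 ± 0.00748 in adults. Nefh to Nefm averaged 1.55 ± 0.288 at P7 and 0.722 ± 0.142 at P3, a log2 difference of 1.10 without overlap. With 3 libraries an age, the smallest exact p is 0.1, which after adjustment over 16 comparisons of neighbouring ages was 0.229, so this exact test could not call these steps between single ages, and no other test of them was run.

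**Figure D3:**
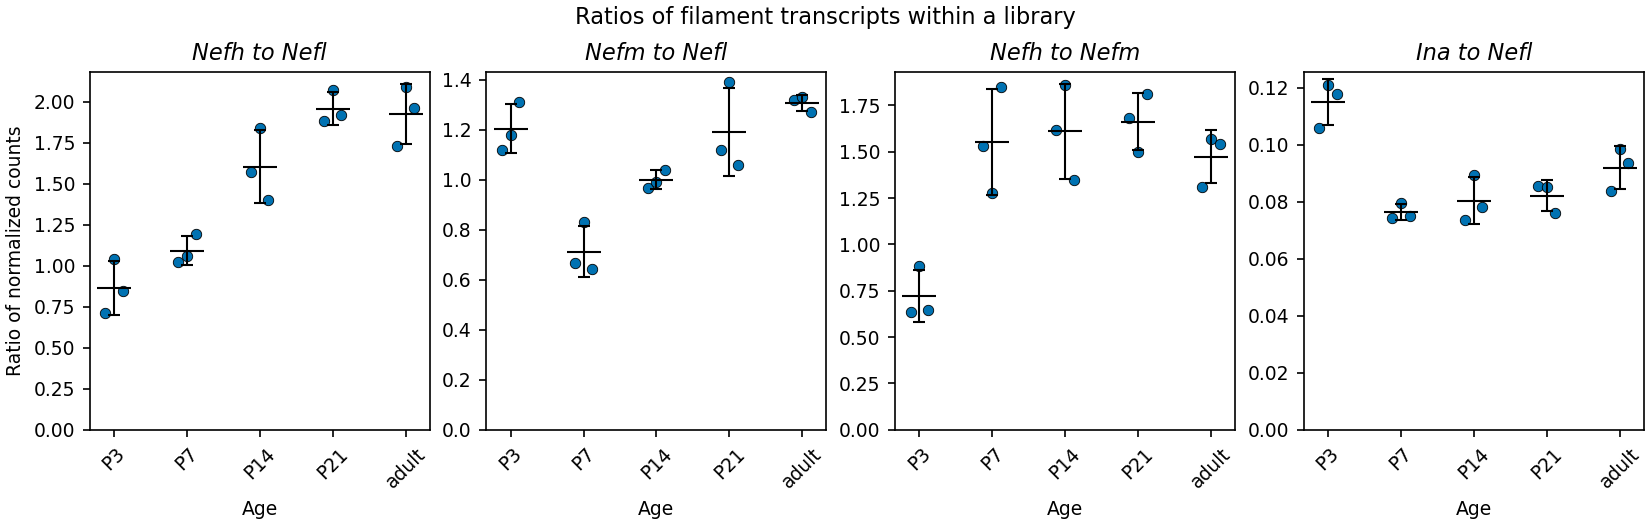
Ratios of normalized counts of 2 genes within each library (linear axes from 0) by age; points are libraries, bars are the mean and SD of 3. Nefh to Nefl is 0.712 to 1.19 at P3 and P7 and 1.40 to 2.09 from P14 on, whereas Nefm to Nefl is lowest at P7 with a mean of 0.712.

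To compare levels between genes, the normalized counts were divided by the exon length within the span the table gives each gene (2001 bases for Nefl, 3072 for Nefm, 3992 for Nefh, 2259 for Ina and 1999 for Prph, from GENCODE M21). As a share of the 5 genes per kilobase, Nefl held 42.7% ± 2.46 at P3, 48.0% ± 1.49 at P7, 39.6% ± 1.67 at P14, 35.4% ± 2.0 at P21 and 34.5% ± 1.22 in adults (SD, n = 3 each). Nefh held 18.4% ± 2.59, 26.1% ± 2.04, 31.7% ± 3.12, 34.6% ± 0.566 and 33.2% ± 2.06 at the same ages, and Nefm 33.4%, 22.2%, 25.7%, 27.2% and 29.3%. By this measure Nefl and Nefh were close to each other at P21 and in adults, whereas at P3 Nefl and Nefm held most of the sum. Ina held 4.33% at P3 and 2.81% in adults, and Prph 1.20% at P3 and 0.142% in adults. Which gene leads depends on the length. With whole exon lengths, which reach beyond the table's span, Nefl held 38.5% and Nefh 28% at P3, and Nefl 28.7% and Nefh 46.5% in adults. With the length of the longest transcript, Nefm led at P3 with 36.7% against 33.3% for Nefl, and Nefh led in adults with 41.4%.

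**Figure D4:**
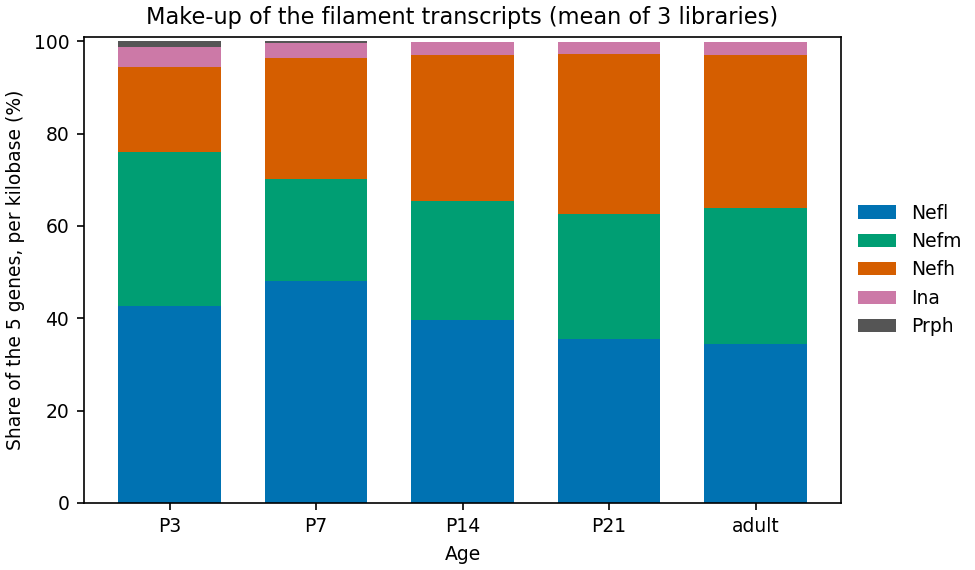
Share of each gene in the sum of the 5, in normalized counts per kilobase of exon within the table's span (percent, mean of 3 libraries) by age. The share of Nefh is 18.4% at P3 and 33.2% in adults, that of Nefl 42.7% and 34.5%, and Prph is barely visible after P7.

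Within an age, the 4 genes other than Prph moved together from library to library. Over 15 libraries, the deviations of log2 values from the mean of their age correlated with Pearson's r between 0.59 (Nefh and Nefm) and 0.92 (Ina and Nefl); the libraries share their scaling and depth, and this is a description. P3 replicate 3 was high, with deviations of 0.36 (Nefh) to 0.50 (Nefm), and P3 replicate 2 was the lowest in Nefl, Nefm and Ina. At P21, replicate 3 was high and replicate 2 low, down to -0.40 for Nefl. Prph ran the other way at P3, at 0.97 in replicate 2 and -0.74 in replicate 3, and its r with the other 4 was between -0.66 and -0.04.

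The filament genes were next set against 14 genes of neurons in general. The members' values are given as log2 differences from the mean log2 level of that list in the same library. That mean includes Gap43, which fell with age, and Syt1. Syt1 had normalized counts of 2826 ± 512 at P3 (SD, n = 3), and 6663, 323 and 630 in adults. Gains on this mean therefore depend on the genes listed. In adults against P3 the list's median log2 fold change was 2.06, beside 2.04 for Nefl and 2.16 for Nefm. Nefh stood 2.08 ± 0.18 above it at P3, 2.68 ± 0.25 at P7, 3.78 ± 0.19 at P14, 3.83 ± 0.25 at P21 and 3.66 ± 0.31 in adults (log2 difference, SD, n = 3 each). Nefl stood 2.31 ± 0.17 above it at P3, 3.11 ± 0.02 at P14 and 2.72 ± 0.17 in adults, and Nefm 2.57 ± 0.24 at P3, 2.06 ± 0.04 at P7 and 3.10 ± 0.16 in adults. Ina stayed between means of -1.15 at P7 and -0.53 at P14, within a narrow band below the list. Prph was at -3.21 ± 1.12 at P3 and -5.22 ± 0.43 in adults. Of the 14 neuronal genes 11 rose and 1 fell at P14 against P7 (median log2 fold change 1.27, against -0.02 over all genes tested), and 12 rose and 1 fell in adults against P3 (median 2.06, against -0.01). Of all genes 24.3% rose in the comparison of P14 with P7 and 34.4% in that of adults with P3. Snap25 was 15.7-fold higher in adults than at P3 and Thy1, a surface glycoprotein of projection neurons, 9.72-fold, while Gap43, a growth cone protein, was 15.3-fold lower (limma adjusted p of 7.97e-11, 1.83e-10 and 1.49e-06).

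Of 12 intermediate filament genes of glia, mesenchyme, muscle, epithelium and the nucleus, 1 rose and 5 fell at P14 against P7 (median log2 fold change -0.17), and 2 rose and 7 fell in adults against P3 (median -0.67). These are 6 and 9 of 12 genes called, close to the 48.1% and 68.7% called among all genes in the same comparisons. Vim, vimentin of mesenchymal and immature cells, averaged 9052 ± 559 in adults and 31044 ± 2911 at P3, and Lmnb1, a nuclear lamin abundant in dividing cells, 492 ± 23 in adults and 2256 ± 133 at P3. Synm, synemin, a large filament protein that links filaments to adhesion sites, was 7.63-fold higher in adults than at P3 (log2 fold change 2.93 ± 0.19, adjusted p = 1.54e-08) and had already risen at P14 against P7 (1.96 ± 0.19, adjusted p = 2.80e-06). Gfap, the astrocyte filament that nonmyelinating Schwann cells also make, was 8.05-fold higher in adults (3.01 ± 0.82, adjusted p = 0.00524), with 17466, 10996 and 12940 normalized counts in adults and 5273, 665 and 1357 at P3.

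Among 22 genes whose products phosphorylate, carry, link or degrade neurofilaments, 13 rose and 1 fell at P14 against P7 (median log2 fold change 0.34), and 16 rose and 1 fell in adults against P3 (median 1.03). Among all genes 24.3% rose and 48.1% were called in either direction at P14 against P7, and 34.4% rose and 68.7% were called in adults against P3. The list was drawn up from general knowledge with earlier results of these data in view. The 3 heavy chains of kinesin-1, the motor family that moves filaments outward along axons, were all higher in adults than at P3: Kif5a 5.08-fold, Kif5c 4.11-fold and Kif5b 2.22-fold. Myo5a, a myosin motor that binds Nefl, was 4.16-fold higher and Trim2, a ubiquitin ligase for Nefl, 3.17-fold (limma adjusted p of 8.36e-08 and 3.66e-10). Cdk5 and its activator Cdk5r1, which phosphorylate the side arms of Nefh and Nefm, were 1.43-fold and 2.92-fold higher. Dst had 94738, 101028 and 97876 normalized counts in adults and 8225, 9816 and 13359 at P3, a 9.54-fold difference that was close in size to that of Nefh. Tardbp, an RNA-binding protein reported to bind the human NEFL transcript, was the gene that fell, 1.25-fold in adults against P3 (adjusted p = 5.04e-04).

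Of 13 neuronal tubulins and microtubule-associated genes, 8 rose and 2 fell at P14 against P7 (median log2 fold change 0.99), and 9 rose and 3 fell in adults against P3 (median 1.70), where 48.1% and 68.7% of all genes were called in either direction. Map1a was 18-fold higher in adults than at P3 and Tuba4a 4.45-fold, while the early tubulins Tubb2b and Tuba1a were 11-fold and 1.77-fold lower and Dcx, a protein of migrating young neurons, 1.62-fold lower. Stmn2, a tubulin-binding protein of growing axons, did not pass the test (0.16 ± 0.17, adjusted p = 0.415).

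**Figure D5:**
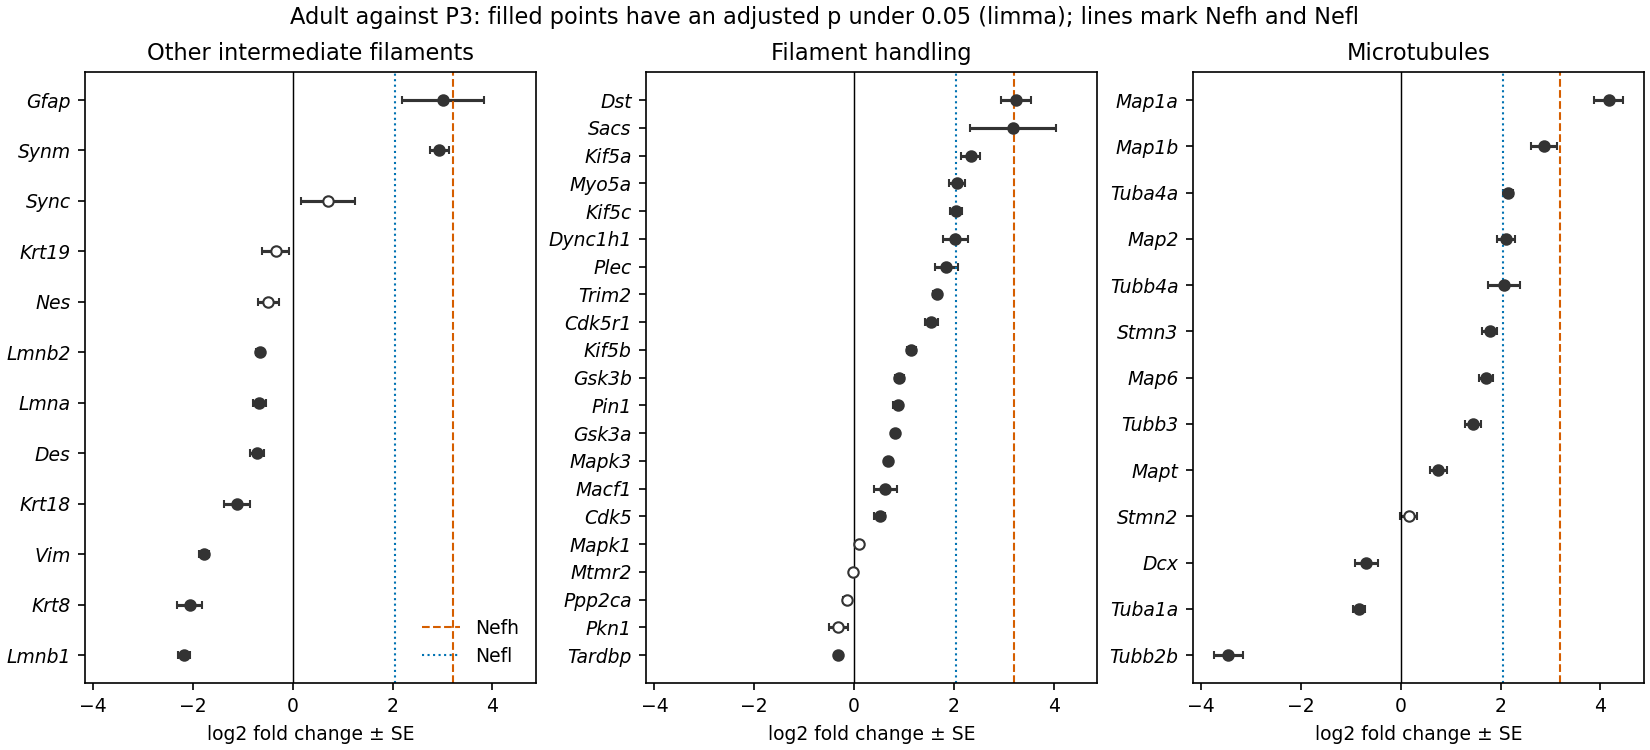
Log2 fold change of adult against P3 with its standard error for 12 other intermediate filament genes, 21 filament-handling genes and 13 microtubule genes; filled points had a limma adjusted p under 0.05, and vertical lines mark Nefh (3.20) and Nefl (2.04). Map1a and Dst are the genes drawn beyond the Nefh line.

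Prph was set beside 5 other genes reported in type II spiral ganglion neurons, several of which other cells of the nerve also express. At P14 against P7, 4 of the 5 rose and 1 fell, and in adults against P3 the test called 3, each higher. Among all genes 48.1% were called at P14 against P7 and 68.7% in adults against P3, so 3 of 5 is no more than the share of all genes. Th, tyrosine hydroxylase, averaged 148 ± 49.7 in adults and 42.6 ± 7.50 at P3 (3.32-fold, adjusted p = 9.05e-05), and Plk5, a polo-like kinase, 283 ± 75.9 in adults and 109 ± 28.3 at P3 (2.57-fold, adjusted p = 5.45e-05). Ngfr, the low-affinity neurotrophin receptor that Schwann cells also carry, was 3.62-fold higher in adults. Gata3, a transcription factor, fell at P14 against P7 (-1.33 ± 0.26, adjusted p = 7.96e-04). Prph itself passed in neither comparison. Prph also marks motor and efferent neurons; of 4 genes of cholinergic neurons 2 were in the table, and Slc5a7, the choline transporter, averaged 31.7 ± 7.05 in adults and 139 ± 11.1 at P3 (4.33-fold lower, adjusted p = 0.00245). The other, Isl1, a transcription factor that other neurons of the ear also make, moved the other way, with 6004 ± 900 in adults and 3077 ± 204 at P3 (1.94-fold higher, adjusted p = 2.80e-05).

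The genes whose log2 levels followed each member most closely over the 15 libraries were taken from 13187 genes with a mean of at least 100, as a description. For Nefh these included Chgb (a granin of dense-core vesicles, Pearson's r = 0.996), Krt222 (a keratin-family gene), Radil and Eno2 (the neuronal enolase), the last at 0.993. For Nefm they included Rassf5 (0.991), Syn1 (synapsin 1), Magee1 and Sncb (beta-synuclein), and for Nefl they were Kcnj12 (an inward rectifier potassium channel, 0.984), Lynx1, Ppp2r2c, Mras and Cend1. For Ina they were Chrnb2, a nicotinic receptor subunit (0.986), Adam22, Rasl10b, Kcnh2 and Rassf5. Chgb had 2147, 2043 and 2984 normalized counts at P3, 3635, 2985 and 3754 at P7, 14340, 16280 and 13294 at P14, 14394, 12012 and 18245 at P21 and 21485, 25056 and 23063 in adults, with the same high and low libraries at P21 as Nefh. The closest gene to Prph, Foxs1, reached 0.782, where the 99th percentile of all genes was 0.548, and the closest genes to the other 4 were against 99th percentiles of 0.956 (Nefl) to 0.980 (Nefh). With so many genes changing with age, high r values are common, and the points share age and scaling.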

How the data were processed

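The deposited table holds a signal per gene and library that the authors normalized: reads divided by a size factor per library, called a normalized count here. Dividing by the value of 1 read in a library gave whole reads (tolerance 0.1) for 99.94% of values above 0; these are the recovered reads. Per the submitters' processing notes, Partek, TopHat2 and DESeq2 were used with mm10; the annotation, counting settings and use of strand are not given in the sources used here. The table also holds, per the file headers, the authors' p-value, FDR and signed fold-change score for pairs of postnatal ages, used only where named.

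Limma (3.58.1, R 4.3.3; trend, robust) was run on log2(value + 1) over all 15 libraries, with no covariate; 10 pairs of ages and a joint test were adjusted by Benjamini-Hochberg over 16723 genes. Ratios were tested by exact permutation. Alternatives were count tests on recovered reads with DESeq2 (1.42.0), limma-voom and edgeR (4.0.16), other scalings, filters and pseudocounts, only both ages in the fit, the replicate number as a block, and leaving out single libraries or the 4 low in Eif2s3y. The code was tested on simulated data. The floor of 3 reads covers counting error only, since no molecular identifiers mark which reads come from the same molecule.

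The members, gene lists, tests and the split at the onset of hearing were chosen with earlier results of these data known. Named genes were the 5 members, up to 4 genes per list with the smallest adjusted p in the joint test, any called against its list's majority in P14 against P7 or adult against P3, and the 5 genes most correlated with each member. Outside this rule, Ap1b1, Nt5c2, A230070E04Rik, Dst, Kif5a, Kif5b, Cdk5, Cdk5r1 and Stmn2 were named after their values were seen. Some genes that the rule allows are left out of the text and figures.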

Additional observations from a re-analysis of the deposited data

How the results depend on the processing

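The rises of Nefl, Nefm, Nefh and Ina at P14 against P7 and in adults against P3 held in every alternative run, as did those of P14 and P21 against P3 and of P21 and adults against P7. Some counts of members were small and moved. For P7 against P3 (1 called) the count was 2 after quantile normalization, 3 with DESeq2, and 1 to 2 when single libraries were left out, where without P3 replicate 2 Nefm was called in place of Nefh. For adult against P21 (3 called) it was 1 after quantile normalization, and from 0 to 4 with single libraries left out. Without the 4 libraries low in Eif2s3y only replicate 3 remains at P21, so counts of that fit are not given for comparisons with P21. For adult against P14 (1 called) it was 0 with limma-voom, without those 4 libraries and after quantile normalization, 3 with only both ages in the fit, and 0 to 2 with single libraries left out. Over all genes, P21 against P14 called 1553, but 2519 with DESeq2, 137 with only both ages in the fit, 754 without the 4 libraries and 631 to 1969 with single libraries left out. Adult against P21 called 8266, but 5211 with only both ages in the fit and 3987 without the 4 libraries. P7 against P3 called 4703, and from 3080 to 6349 when single libraries were left out, the highest without P21 replicate 2. With only both ages in the fit it called 6609, so counts moved in both directions. Fits with fewer libraries or ages have fewer residual degrees of freedom by construction. Whether this played a part in these shifts, or what else did, was not tested. The labels do not say whether replicate numbers pair the libraries. Deviations of same-numbered libraries correlated with r between -0.229 and 0.319 (median 0.0335, 18 pairs), against -0.369 to 0.385 for other numbers. With so few libraries an age, these values cannot decide whether a number marks a shared litter or batch. With the number as a block, P21 against P14 called 645 genes, adult against P21 called 4 members and P14 against P3 called 5. The P7 libraries carry other numbers, so that no paired analysis was possible for comparisons with P7. Levels per kilobase of Nefl, Nefm and Ina depend on the exon length used, and the whole exon length was added as an alternative after the data were seen.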
